A study of Rattus norvegicus with 6 samples.

Results

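The genes described here are the histone genes and histone variants among the gene counts of cultured rat heart cells. Members were all rows whose symbol begins with Hist and a cluster number from 1 to 4, or with H2af, H3f3 or H1f. There were 30 such rows among 18237 in all. Of these, 21 lie by name in the histone gene clusters and 9 are replacement variants, which are encoded elsewhere in the genome. The cells are labelled NRVM, which commonly stands for neonatal rat ventricular myocytes, although their growth protocol gives embryonic myocardium as the source. The siNT group of 3 libraries had a control siRNA, and the siMt2 group of 3 libraries had one directed at Mt2, a gene of the metal-binding metallothionein family. Both groups were grown in DMEM with fetal bovine serum, and the extraction text they share also mentions insulin, dexamethasone and isobutylmethylxanthine; use on these cells is not stated. The labels do not say that the replicates came from separate cultures, so p-values here describe spread among libraries that may be technical repeats.

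Nuclear DNA is wrapped around octamers of the core histones H2A, H2B, H3 and H4, and the linker histone H1 binds where the DNA enters and leaves. Cluster genes are transcribed mainly in S phase, and their transcripts typically end in a conserved stem-loop in place of a poly(A) tail. Replacement variants are typically made throughout the cell cycle from polyadenylated transcripts and are largely exchanged into chromatin outside replication. The labels name an mRNA library kit and do not say whether RNA was selected or primed by its poly(A) tail, so it is not known which forms of the cluster transcripts were counted.

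Gene counts summed to between 2859759 and 6817777 per library, the lowest being siMt2 replicate 3, so that 3 counts corresponded to 0.440 to 1.05 CPM, the count per library scaled to a common total by the TMM method. Mt2a, the targeted transcript, had CPM of 90.7, 170 and 93.3 in the siNT libraries and 70.7, 87.3 and 142 in the libraries labelled siMt2. These groups overlapped and did not pass the test (log2 fold change -0.28, SE 0.42, edgeR adjusted p = 0.631), so groups are named by their labels throughout. Of 10 cardiomyocyte marker genes in the counts, 6 had fewer than 10 counts over all libraries, among them the myosin gene Myh6 and the cardiac actin gene Actc1. The summed CPM of the 10 was 36.3 to 40.3 in siNT and 57.2 to 72.2 in siMt2, most of it from the troponin gene Tnnt2, which rose, with 27.2 ± 1.38 CPM in siNT and 54.5 ± 5.19 CPM in siMt2 (log2 fold change 1.01, SE 0.11, edgeR adjusted p = 1.81e-07). Ttn, the other cardiomyocyte marker tested, had 8.49 ± 1.77 and 6.64 ± 1.58 CPM and did not pass (log2 fold change -0.42, edgeR adjusted p = 0.169). Summed CPM of the fibroblast markers was 7601 to 7755 in siNT and 9884 to 13857 in siMt2. Most of it came from Col1a1, with 4701 ± 168 CPM in siNT and 7795 ± 1556 CPM in siMt2. Summed CPM of the smooth muscle markers was 1932 to 1981 and 3812 to 3916. Of 8 fibroblast markers tested, 6 were higher and 0 lower at an edgeR adjusted p under 0.05, while Col1a2 and Col3a1 were not called. Among the 6, Dcn (4, 5 and 0 counts in siNT) and Lum (5, 0 and 2) passed the filter through the siMt2 libraries alone. They could therefore hardly be called lower. Of 5 smooth muscle markers, 4 were higher and 1 lower (Myocd, 78.6 ± 7.26 and 63.2 ± 4.71 CPM). Over all genes tested 25.8% were higher and 25.1% lower. The part of these cell types in the histone results below was not tested. In bulk RNA, fewer cells of a type and less RNA per cell cannot be told apart.

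The summed CPM of the cluster genes was lower in siMt2 and that of the replacement variants higher, and a few genes carried each sum. Summed over the 21 cluster genes, CPM was 129, 128 and 122 in the siNT libraries and 80.0, 91.3 and 74.7 in siMt2. Group means were 126 ± 3.70 and 82.0 ± 8.49 CPM (SD, n = 3 each), so the siMt2 mean was 0.650 times the siNT mean. Summed over the 9 replacement variants, CPM was 984, 970 and 1010 in siNT and 1481, 1500 and 1388 in siMt2. The means were 988 ± 20.3 and 1457 ± 60.0 CPM, a ratio of 1.47. In both sums the groups did not overlap. Cluster genes held 11.6%, 11.6% and 10.8% of all histone CPM in siNT and 5.12%, 5.73% and 5.10% in siMt2. These sums are a description and carry no test. Hist1h1c and Hist1h2bh made up 91.0% of all cluster counts, and H1f0 and H3f3b 75.2% of the replacement counts. Without Hist1h1c the log2 ratio of the cluster sum was -1.12 in place of -0.62. Without H1f0 that of the replacement sum was 0.41 in place of 0.56. The 5 replacement genes for H2A did not share the rise, with a sum of 292 ± 2.40 CPM in siNT and 286 ± 18.2 CPM in siMt2.

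**Figure D1:**
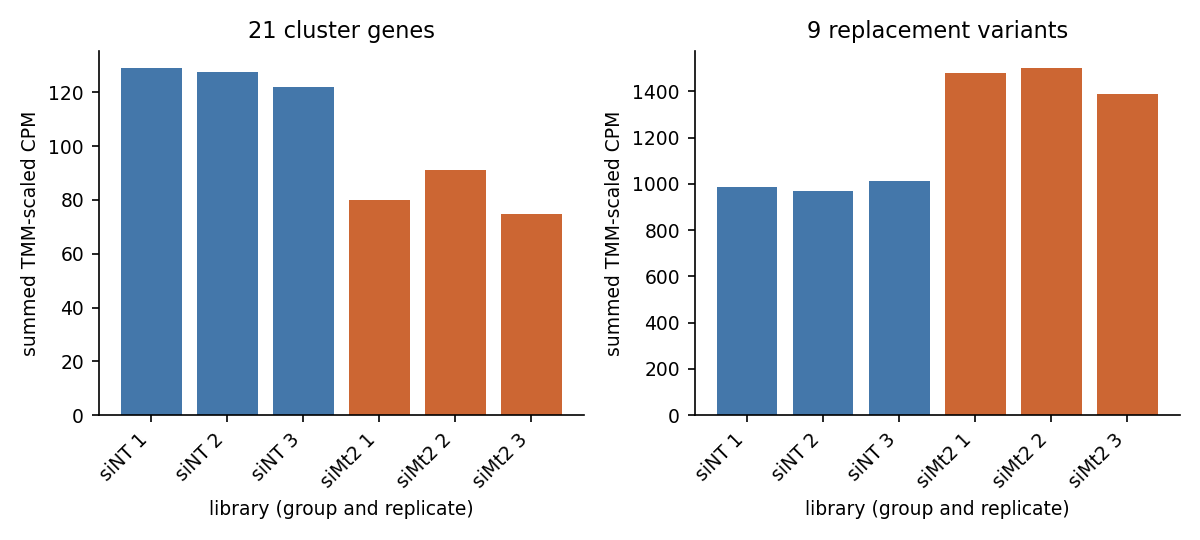
Summed TMM-scaled CPM (vertical axes, both starting at 0) of the 21 cluster genes (left) and the 9 replacement variants (right) in each of the 6 libraries, siNT in blue and siMt2 in orange. The cluster sum lies between 122 and 129 in siNT and between 74.7 and 91.3 in siMt2, and the replacement sum between 970 and 1010 and between 1388 and 1500.

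Of the 30 members, 12 had enough counts to be tested, namely all 9 replacement variants and 3 cluster genes. In the libraries labelled siMt2, 5 were higher and 4 lower at an edgeR adjusted p under 0.05, adjusted over all 11726 genes tested. Over all genes 50.9% passed, 25.8% higher and 25.1% lower. The higher ones were H1f0, H3f3b, H2afy2, H2afx and H1fx, and the lower ones Hist1h1c, Hist1h2bh, Hist3h2a and H2afy. The median log2 fold change of the 12 was 0.13, beside 4.90e-04 over all genes. A rare gene enters the test through the group in which it is higher, so the counts and the median are given as a description only.

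**Figure D2:**
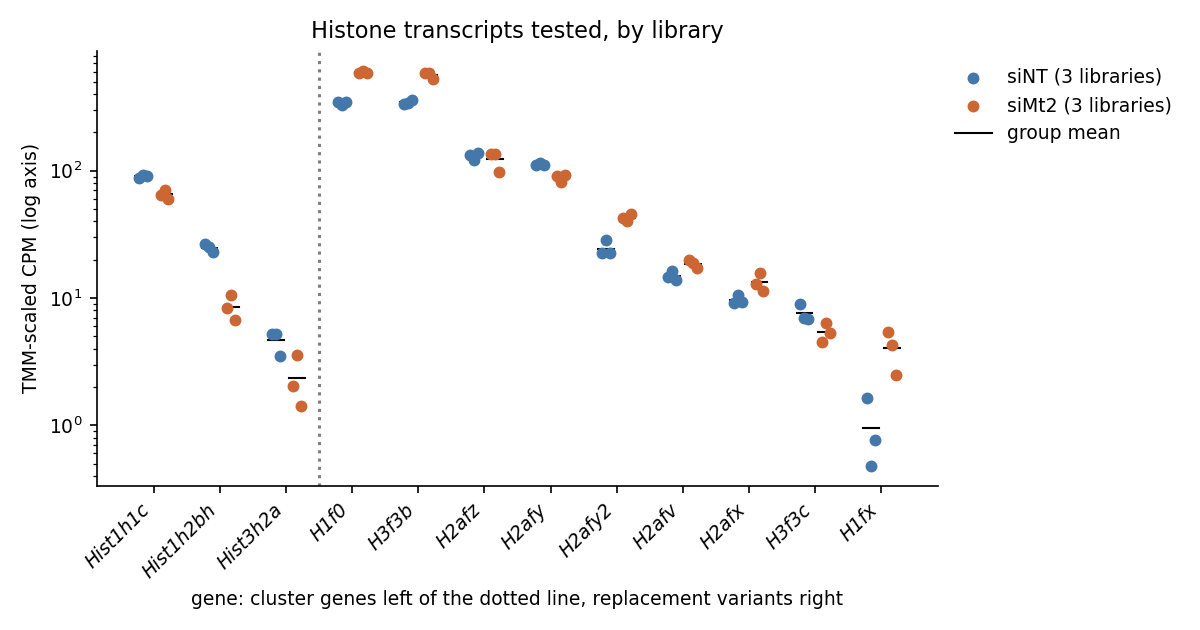
TMM-scaled CPM on a log axis for the 12 tested histone transcripts, with 1 point per library (siNT blue, siMt2 orange) and black lines at the group means. The 3 cluster genes stand left of the dotted line. H1f0 and H3f3b lie at 526 CPM or more in all siMt2 libraries and at most at 359 in all siNT libraries.

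Among linker histones, H1f0 rose and Hist1h1c fell. H1f0 encodes a replacement linker histone that accumulates in resting and differentiated cells. It stood at 348, 329 and 349 CPM in siNT and at 588, 613 and 588 CPM in siMt2. Every siMt2 value lay far above every siNT value. The log2 fold change was 0.80 (95% interval 0.71 to 0.89, SE 0.04, edgeR adjusted p = 6.68e-12), and 1146 of the 11726 genes had a larger one.

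Hist1h1c, a cluster gene for a somatic linker histone, had 88.3, 92.3 and 90.3 CPM in siNT and 64.8, 71.2 and 60.2 CPM in siMt2. The groups did not overlap, and the siNT libraries varied by an SD of 1.96 CPM. The log2 fold change was -0.46 (95% interval -0.62 to -0.29, SE 0.08, edgeR adjusted p = 7.32e-05).

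H1fx, a further replacement linker histone, was rare, with 9, 2 and 5 counts in siNT and 37, 18 and 7 in siMt2. Its CPM was 1.63, 0.478 and 0.766 against 5.40, 4.26 and 2.47, without overlap. It passed the filter through the siMt2 libraries alone, and its fitted log2 fold change of 2.10 (95% interval 1.14 to 3.05, SE 0.46, edgeR adjusted p = 7.00e-04) depends on siNT counts near the detection limit. The remaining linker genes of the clusters were Hist1h1b with 17 counts over all libraries, Hist1h1d with 10 and Hist1h1t, the testis-specific form, with 5. None of these was tested.

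Summed over each class, linker histones had 91.4 ± 1.22 CPM (siNT) and 66.4 ± 4.74 CPM (siMt2) from 4 cluster genes. The 2 replacement genes summed to 343 ± 11.7 and 601 ± 14.6 CPM. Set against each other, H1f0 took 79.7%, 78.1% and 79.4% of the summed CPM of H1f0 and Hist1h1c in siNT and 90.1%, 89.6% and 90.7% in siMt2. These are shares of reads, not of molecules, since CPM is not scaled by transcript length.

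Hist1h2bh, a cluster gene for the core histone H2B, had the deepest fall of the tested members. It had 146, 105 and 151 counts in siNT and 57, 45 and 19 in siMt2, or 26.4, 25.1 and 23.1 CPM against 8.32, 10.6 and 6.69 CPM. The highest siMt2 value, 10.6 CPM, lay well under the lowest siNT value, 23.1 CPM. The log2 fold change was -1.51 (95% interval -1.87 to -1.15, SE 0.17, edgeR adjusted p = 3.91e-07), a 2.86-fold lower level. Only 77 of the 11726 tested genes had a lower log2 fold change. Hist2h2be, the H2B gene with the next most counts, had 9, 6 and 10 counts in siNT and 16, 4 and 12 in siMt2, with overlapping groups and too few to be tested.

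Hist3h2a, a cluster gene for core histone H2A, had 5.24, 5.26 and 3.53 CPM in siNT and 2.04, 3.55 and 1.41 CPM in siMt2. It passed the filter through the siNT libraries. The groups overlapped, siMt2 replicate 2 lying level with siNT replicate 3. The log2 fold change of -0.95 (95% interval -1.72 to -0.18, SE 0.37) passed with an edgeR adjusted p of 0.0371. By that adjusted p, the call was lost without siNT replicate 1 (0.126), siNT replicate 2 (0.111), siMt2 replicate 1 (0.155) or siMt2 replicate 3 (0.106), and in DESeq2 (0.0969).

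The other 18 cluster genes were barely detected, with at most 57 counts each over all 6 libraries and 14 of them under 10. Together they had 50, 21 and 33 counts in siNT and 33, 25 and 18 in siMt2. Pooled by group and without TMM, this is 6.36 CPM (exact 95% Poisson interval 5.20 to 7.71) and 5.47 CPM (4.31 to 6.84). The intervals overlap and cover counting error only. Their overlap is not a test, and a difference in this sum was not tested. Core histone H4 was represented by Hist2h4 alone, with 3 counts in siNT and 0 in siMt2. The cluster genes for H3, Hist1h3a, Hist2h3c2 and Hist3h3, had 8 counts in all, which were 6 in siNT and 2 in siMt2. In the libraries labelled siMt2, 6 cluster genes had no count, where 3 counts over the group correspond to 0.216 CPM without TMM. Of these 6, Hist2h2aa3 had the most siNT counts, with 7. In siNT, 1 cluster gene, Hist1h3a, had no count, where 3 counts over the group correspond to 0.184 CPM without TMM. Many cluster genes for the same core histone are near-identical copies. The sources used here do not say how reads matching several genes were counted, so the split between such copies is uncertain.

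Names of cluster genes are also not unique. All 30 members matched the RefSeq table of assembly GRCr8 by symbol or synonym, but 5 matched 2 entries each, Hist1h2bh and Hist1h1c among them. The 150 bases before the annotated start are shown for every entry that these and Hist3h2a matched, because these are the cluster genes that fell, and for H3f3b and H1f0, the most abundant members that rose. Sequences are from RefSeq, build GRCr8, 5′ to 3′ on the strand of the gene. The windows are chr17:41820454-41820603 (minus strand, entry H1f2) and chr17:41914275-41914424 (plus, H1f4) for Hist1h1c, and chr17:41869342-41869491 (minus, Hist1h2bq) and chr17:47174370-47174519 (minus, H2bc9) for Hist1h2bh. For the others they are chr10:44233133-44233282 (plus, H2ac25) for Hist3h2a, chr10:101757637-101757786 (minus) for H3f3b and chr7:112473130-112473279 (plus) for H1f0. Capitals mark 4 motifs on either strand: the CCAAT box, the TATAAA of a TATA box, the octamer core ATGCAAA and the box AAACACA known from genes for H1.
Hist1h1c, entry H1f2: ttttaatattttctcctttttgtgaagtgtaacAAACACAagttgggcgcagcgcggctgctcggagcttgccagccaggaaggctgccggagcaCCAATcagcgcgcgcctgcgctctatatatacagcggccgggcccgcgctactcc
Hist1h1c, entry H1f4: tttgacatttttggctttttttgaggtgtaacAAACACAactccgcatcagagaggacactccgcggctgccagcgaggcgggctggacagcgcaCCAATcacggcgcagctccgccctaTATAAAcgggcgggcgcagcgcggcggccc
Hist1h2bh, entry Hist1h2bq: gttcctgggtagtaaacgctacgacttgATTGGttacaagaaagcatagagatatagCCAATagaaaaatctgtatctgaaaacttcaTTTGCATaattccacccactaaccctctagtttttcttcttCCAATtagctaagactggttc
Hist1h2bh, entry H2bc9: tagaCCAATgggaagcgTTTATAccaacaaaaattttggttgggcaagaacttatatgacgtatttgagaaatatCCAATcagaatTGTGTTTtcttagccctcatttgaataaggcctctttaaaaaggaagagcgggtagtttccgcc
Hist3h2a: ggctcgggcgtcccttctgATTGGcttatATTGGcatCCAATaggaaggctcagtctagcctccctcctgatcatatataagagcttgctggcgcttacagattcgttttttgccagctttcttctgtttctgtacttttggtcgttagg
H3f3b: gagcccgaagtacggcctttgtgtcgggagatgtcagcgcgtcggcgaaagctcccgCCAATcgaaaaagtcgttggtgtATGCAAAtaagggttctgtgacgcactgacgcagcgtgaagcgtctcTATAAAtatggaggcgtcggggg
H1f0: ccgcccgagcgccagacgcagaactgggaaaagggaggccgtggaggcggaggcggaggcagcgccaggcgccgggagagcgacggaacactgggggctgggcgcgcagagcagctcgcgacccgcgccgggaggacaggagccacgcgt

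Motifs were counted on both strands of windows from 250 bases before to 50 after the start. CCAAT was in 22 of 23 windows of cluster genes, in 4 of 8 of replacement variants and in 37.5% of all 33469 promoters. TATAAA was in 14 of 23, in 3 of 8 and in 14.2% of all promoters. ATGCAAA was in 7 of 23, in 1 of 8 and in 4.68%, and AAACACA in 6 of 23, in 0 of 8 and in 6.99%. Both entries of Hist1h1c hold AAACACA, 117 and 118 bases before the start, and CCAAT 55 bases before it. H3f3b holds the CCAAT, octamer and TATA motifs in the stretch shown, while H1f0 holds none of the 4 motifs in its whole window. A match is a description of letters, not of a bound site.

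Among the genes for H3, H3f3b rose. It encodes the replacement histone that is deposited at active genes and regulatory regions outside replication. CPM was 335, 343 and 359 in siNT and 583, 584 and 526 in siMt2, without overlap. The log2 fold change was 0.71 (95% interval 0.61 to 0.81, SE 0.05, edgeR adjusted p = 2.02e-10). H3f3c, annotated as a pseudogene in RefSeq, had 9.03, 6.93 and 6.90 CPM in siNT and 4.53, 6.38 and 5.28 CPM in siMt2. Its siMt2 values were all below its siNT values, yet it did not pass (log2 fold change -0.52, 95% interval -1.06 to 0.018, SE 0.26, edgeR adjusted p = 0.0998). As an H3f3-related copy it can share reads with H3f3b, so its level is uncertain. H3f3a, the other gene for the same protein, was not analysed here.

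**Figure D3:**
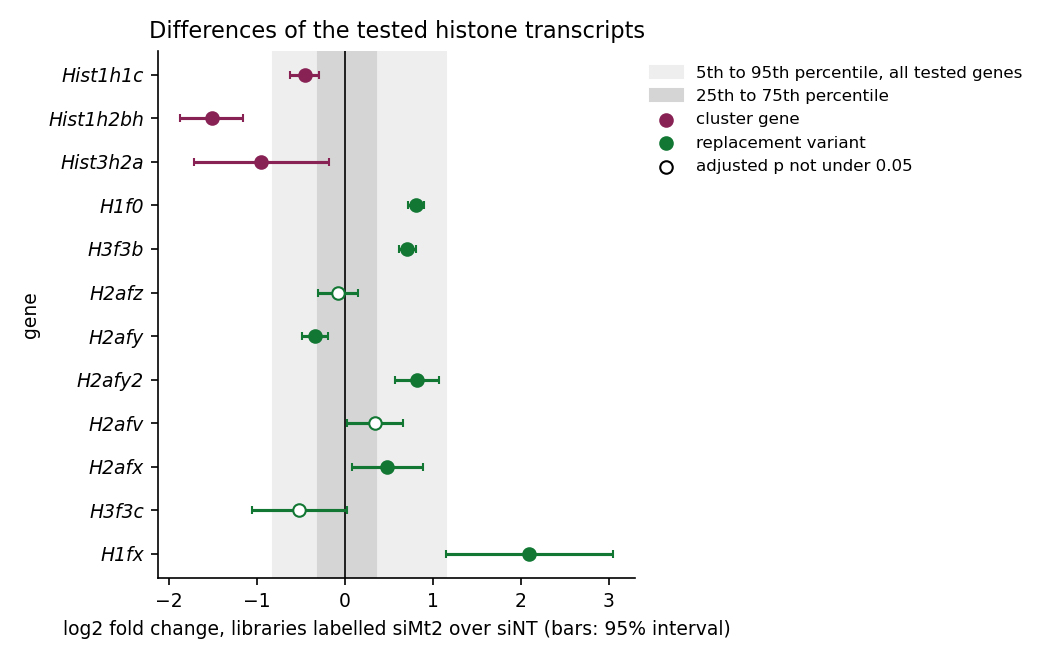
Log2 fold change of the 12 tested histone transcripts, libraries labelled siMt2 over siNT, with 95% intervals (cluster genes purple, replacement variants green, open circles where the adjusted p was not under 0.05). Grey bands show where the middle of all 11726 tested genes lies. Hist1h2bh (-1.51), Hist3h2a (-0.95) and H1fx (2.10) lie outside the wider band, which runs from -0.82 to 1.15.

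The macroH2A genes moved in opposite directions. These variants carry a large extra domain beyond the histone fold and are known for their place in repressed chromatin. H2afy, the gene for macroH2A1, had 111, 114 and 111 CPM in siNT and fell to 90.2, 82.3 and 93.0 CPM in siMt2 (log2 fold change -0.34, 95% interval -0.48 to -0.20, SE 0.07, edgeR adjusted p = 3.62e-04). H2afy2, the gene for macroH2A2, rose from 22.4, 28.4 and 22.4 CPM to 42.2, 40.4 and 45.8 CPM (0.82, 95% interval 0.57 to 1.07, SE 0.12, edgeR adjusted p = 9.38e-06). Neither gene had overlapping groups. H2afy2 took 16.8%, 20.0% and 16.8% of the summed CPM of this pair in siNT and 31.9%, 32.9% and 33.0% in siMt2. The sum of the replacement genes for H2A was 292 ± 2.40 CPM in siNT and 286 ± 18.2 CPM in siMt2, so it differed by less than the SD of the siMt2 libraries.

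The genes for H2A.Z, a variant found at promoters and regulatory elements, did not pass the test. H2afz had 134, 121 and 139 CPM in siNT and 135, 135 and 98.2 CPM in siMt2, where siMt2 replicate 3 lay below all others. Its log2 fold change was -0.080 (95% interval -0.31 to 0.15, SE 0.10, edgeR adjusted p = 0.558), and 0.034 without siMt2 replicate 3. H2afv, the second gene for this variant, had 14.6, 16.3 and 13.9 CPM in siNT and 20.0, 18.7 and 17.3 CPM in siMt2. Its groups did not overlap, with a log2 fold change of 0.34 (95% interval 0.022 to 0.66, SE 0.15, edgeR adjusted p = 0.0691). By adjusted p, it passed without siMt2 replicate 3 (0.0497), under upper quartile scaling (0.0450) and in limma-voom (0.0476).

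H2afx encodes the variant that is phosphorylated around DNA double-strand breaks. It had 9.21, 10.5 and 9.35 CPM in siNT and 13.0, 15.8 and 11.3 CPM in siMt2, without overlap but with a wider spread in siMt2. The log2 fold change was 0.48 (95% interval 0.080 to 0.88, SE 0.19, edgeR adjusted p = 0.0426). The call was lost when any one of 5 libraries was left out, with an edgeR adjusted p of 0.117, 0.0549 and 0.117 without siNT replicates 1, 2 and 3, and of 0.0763 and 0.199 without siMt2 replicates 1 and 2. It was also lost with no filter (0.0701), with the replicate number as a block (0.0633) and in DESeq2 (0.127).

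**Figure D4:**
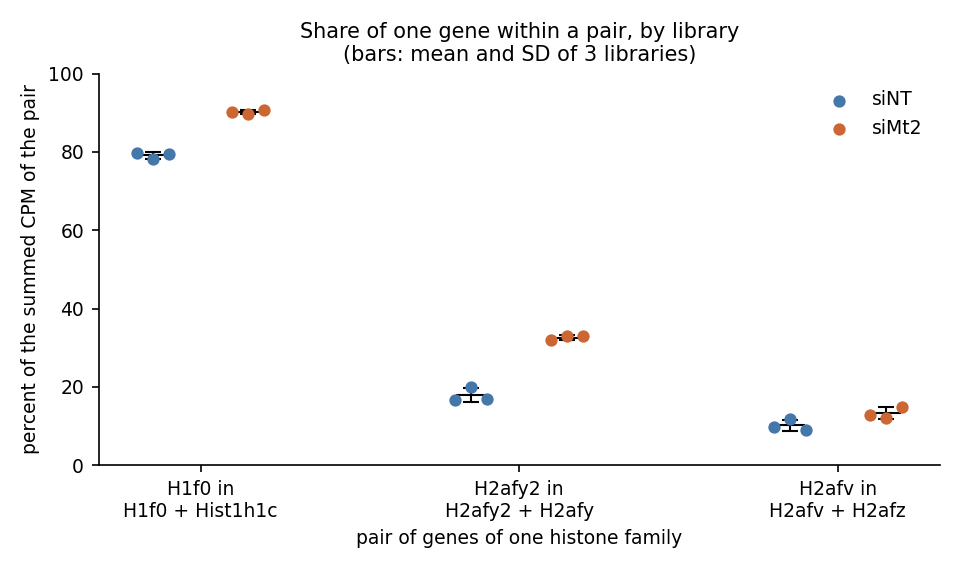
Share of 1 gene in the summed CPM of a pair, in percent, for 3 pairs of histone genes (points are libraries, bars the mean and SD of 3 libraries, siNT blue, siMt2 orange). The share of H1f0 beside Hist1h1c averages 79.1% and 90.1%, that of H2afy2 beside H2afy 17.9% and 32.6%, and that of H2afv beside H2afz 10.3% and 13.3%.

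Without overlap between the groups were 10 of the 12 tested members, all but Hist3h2a and H2afz, where 57.6% of all tested genes had no overlap. Of the 9 members called, 7 kept their call under every alternative that tested them, and Hist3h2a and H2afx did not.

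Cenpa, the centromeric replacement for H3 that marks where kinetochores form, lies outside the symbols used to choose members but belongs to the same family. It rose from 2.17, 1.43 and 1.84 CPM to 10.7, 15.8 and 11.6 CPM, without overlap (log2 fold change 2.76, 95% interval 2.16 to 3.37, SE 0.29, edgeR adjusted p = 1.19e-07). Of the genes that load it, Hjurp, its chaperone, rose from 7.29 ± 1.77 to 30.5 ± 1.05 CPM (2.03, SE 0.17), and Oip5, a subunit of the complex that prepares centromeres for it, rose from 1.17 ± 0.869 to 9.68 ± 2.54 CPM (3.06, SE 0.38). Cenpa had 12, 6 and 12 counts in siNT and Oip5 had 12, 3 and 4, so both passed the filter through the siMt2 libraries, and the size of their fitted fold changes depends on low siNT counts.

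These loading factors belong to a list of 34 histone chaperones and variant exchange factors, the proteins that carry histones to chromatin and swap variants. All 34 were tested, and 12 were higher, 14 lower and 8 not called, a share of 76.5% called beside 50.9% of all genes. The median log2 fold change was -0.12. Asf1b, the form of the H3 and H4 chaperone tied to proliferation, rose from 7.87 ± 1.39 to 22.5 ± 1.01 CPM (1.54, SE 0.18). Supt6h, a histone chaperone of transcription elongation, fell from 382 ± 4.89 to 238 ± 4.82 CPM (-0.69, SE 0.05).

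Among factors that deposit replacement variants, Atrx, which places H3.3 in heterochromatin with Daxx, fell, with 147 ± 4.31 CPM in siNT and 97.1 ± 9.60 CPM in siMt2 (log2 fold change -0.62, SE 0.07). Srcap, the remodeller that inserts H2A.Z, fell from 158 ± 5.06 to 111 ± 2.25 CPM (-0.52, SE 0.06). The edgeR adjusted p of these 6 list genes was at most 1.29e-06. Chosen after its value was seen, Hira, the chaperone of H3.3 at active genes, fell from 10.1 ± 1.90 to 3.42 ± 1.21 CPM (-1.51, SE 0.28, edgeR adjusted p = 1.20e-04). Also chosen after their values were seen, Daxx was not called (-0.19, SE 0.09, edgeR adjusted p = 0.0898), and Ino80 of the same list rose (0.37, SE 0.10, edgeR adjusted p = 0.00440).

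A second list held 25 gene symbols for transcription and 3′ end processing of histone transcripts, of which 22 were in the counts and 20 were tested. Of these 2 were higher, 5 lower and 13 not called, a share of 35.0% called beside 50.9% of all genes, and the median log2 fold change was 0.016. Slbp, which binds the stem-loop of cluster transcripts, had 50.1 ± 2.46 and 51.6 ± 6.31 CPM (log2 fold change 0.039, SE 0.10, edgeR adjusted p = 0.774). Srrt, a partner of the cap-binding complex, fell from 97.2 ± 7.06 to 59.3 ± 2.68 CPM (-0.70, SE 0.08), and Ncbp1, a subunit of that complex, from 123 ± 8.18 to 96.3 ± 7.36 CPM (-0.36, SE 0.07). Upf1, a helicase needed for decay of histone transcripts, fell (-0.44, SE 0.07), as did Cpsf2, a subunit of the cleavage complex (-0.35, SE 0.08), and Npat, the activator of cluster gene transcription, from 80.2 ± 5.51 to 65.9 ± 9.75 CPM (-0.30, SE 0.10). Eri1, an exonuclease that trims the stem-loop end, rose from 72.1 ± 8.75 to 90.7 ± 6.19 CPM (0.33, SE 0.09). The edgeR adjusted p of these 6 genes that passed was at most 0.0115.

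Markers of S phase and proliferation were called in both directions. Of 11 tested, 5 were higher, 3 lower and 3 not called, a share of 72.7% called beside 50.9% of all genes, and their summed CPM was 530 to 566 in siNT and 875 to 933 in siMt2. Most of that gap came from Mki67 (92.4 ± 3.63 and 299 ± 16.4 CPM) and Top2a (46.2 ± 1.93 and 200 ± 11.3 CPM), which peak late in the cycle. The replication clamp gene Pcna fell, with 84.7 ± 5.59 CPM in siNT and 72.9 ± 3.07 CPM in siMt2 (log2 fold change -0.22, SE 0.08, edgeR adjusted p = 0.0275), and the helicase subunit gene Mcm2 from 84.0 ± 7.54 to 71.8 ± 2.66 CPM (-0.22, SE 0.08, edgeR adjusted p = 0.0354). The nucleotide enzyme gene Tyms fell (-0.78, SE 0.18), while Rrm2 (0.44, SE 0.10), Cdc6 (0.94, SE 0.21) and Mcm5 (0.46, SE 0.10) rose, with edgeR adjusted p of at most 0.00104. The part of cell cycle phase in the lower cluster gene counts was not tested.

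**Figure D5:**
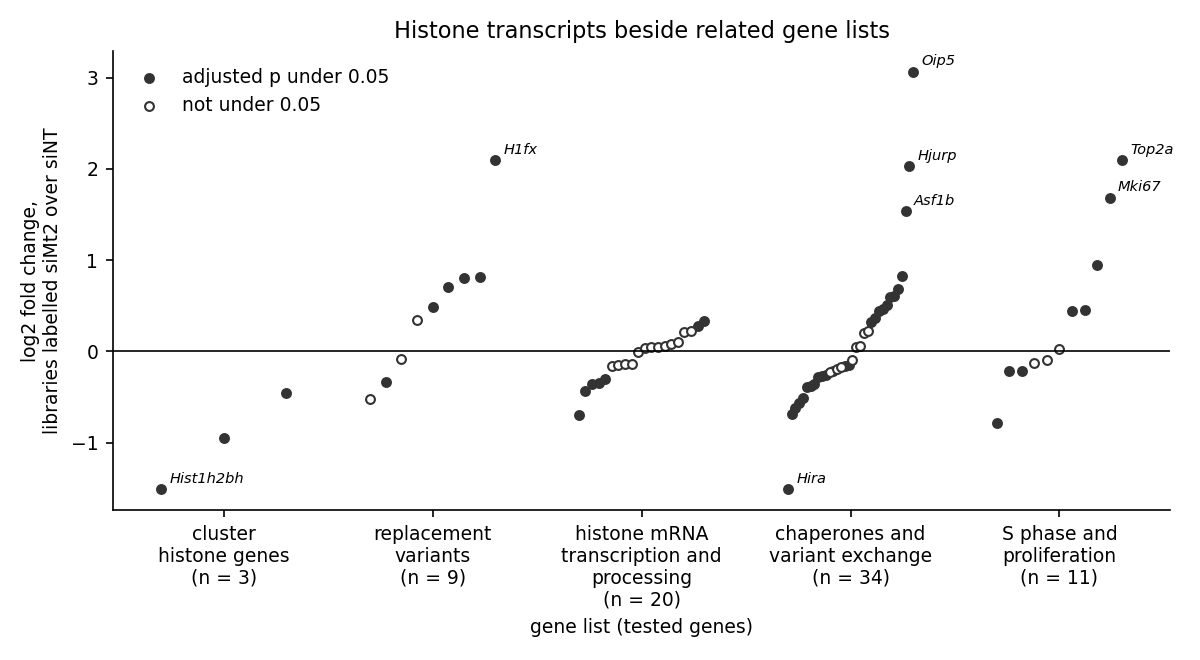
Log2 fold change of every tested gene in 5 lists, libraries labelled siMt2 over siNT, sorted within each list (filled where the adjusted p was under 0.05, names given beyond 1.3 in either direction). All 3 tested cluster genes lie below 0, while the 34 chaperone and exchange genes spread from -1.51 (Hira) to 3.06 (Oip5).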

How the data were processed

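Total RNA of cultured rat cells was made into 6 libraries with a SMARTer mRNA-seq kit, per the labels' protocols. The values the authors deposited are unnormalized counts of reads per gene, in a separate file for each library. Per the submitters' processing notes, the tools include HISAT2 2.2.1, Trimmomatic 0.40, featureCounts, DESeq2 and limma, with build rn6; their order, strand and multi-mapping settings are not given in the sources used here. All files hold the same 18237 rows, of which 25 carry names turned into dates by a spreadsheet (0.250% to 0.278% of counts); these stayed in the totals and tests.

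The counts were fitted with edgeR 4.0.16 in R 4.3.3: filterByExpr (minimum count 10), TMM scaling, robust quasi-likelihood test, two-sided, Benjamini-Hochberg adjustment over all 11726 genes tested, threshold 0.05. SE is the log2 fold change over the root of its F statistic, and intervals are 95%. The fit was tested on simulated counts. Alternatives were DESeq2 size factors, upper quartile scaling, no filter, a stricter one (mean CPM of 1 or more, and 10 or more counts throughout one of the groups), a replicate block, each library left out, DESeq2 1.42.0 and limma-voom (limma 3.58.1). All 30 members are accounted for; the 12 tested are given by library, and of each pathway list up to 6 genes with the smallest adjusted p, with others said to be chosen after their values were seen. Slbp and the proliferation markers were named for their role. Members and lists were chosen with earlier results of these data known. RefSeq of GRCr8 gave names and promoters; H2afx is also a synonym of its neighbour Dpagt1 there, and the H2ax entry was used. No column was without a sample (0).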

Additional observations from a re-analysis of the deposited data

How the results depend on the processing

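Of the 9 called histone members, 7 had the same call under every alternative that tested them; H1fx was not tested under the stricter filter. The count of members higher lay between 4 and 6 and that of members lower between 3 and 4 over the alternatives. With 1 library left out in turn, members higher ranged from 4 to 6, members lower from 3 to 4, genes higher in the transcript processing list from 1 to 3 (main value 2) and those lower from 4 to 6. The list also had 1 gene higher in DESeq2. H2afz ranged from -0.15 to 0.034 on the log2 scale with 1 library left out, changing sign without siMt2 replicate 3, and passed in no setting. The log2 ratio of the cluster sum was -0.62, and -0.51 with H2afx counted among the cluster genes, and -1.12 without Hist1h1c; that of the replacement sum was 0.56, and 0.41 without H1f0. The other scalings and left-out libraries kept these ratios between -0.70 and -0.56 and between 0.54 and 0.60. Upper quartile scaling moved the median of all genes to 0.039. The titles number the replicates 1 to 3 in both groups. Deviations of same-numbered libraries from their group means showed little correlation (-0.0010, -0.058 and 0.025). These values cannot show whether such libraries shared a culture or day, so it is not known whether the numbers pair the samples. With the replicate block, 4 members were higher (H2afx lost, log2 fold change 0.46) and 4 lower. Depth limits the 18 cluster genes that were not tested.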
